A study of Gallus gallus with 6 samples.

Results

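The genes described here are the chick WNT signaling genes: ligands, their receptors and co-receptors, secreted antagonists, R-spondins and the cytoplasmic and nuclear proteins that carry or limit the signal. They were chosen by a rule on gene symbols that uses no measured value but was set with earlier results of these data known, and 49 of the 10337 genes in the data matched. Of these, 18 carried their symbol in the authors' file and 31 were named through their Entrez identifier. WNT proteins are lipid-modified secreted ligands that bind Frizzled receptors. With LRP co-receptors they stabilize β-catenin, which activates target genes together with TCF and LEF factors, whereas other WNT proteins act through ROR and RYK receptors on cell shape and movement. In the embryonic face, WNT signals from the surface ectoderm act on the underlying neural crest mesenchyme and are known to be required for outgrowth and fusion of the prominences.

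RNA-seq was performed on facial prominences of *talpid2* embryos, an autosomal recessive ciliopathic chick mutant with facial clefting and polydactyly, and of control embryos, all at Hamburger-Hamilton stage 25. Each genotype gave 1 library from the frontonasal prominence (FNP), 1 from the maxillary prominence (MXP) and 1 from the mandibular prominence (MNP), so the data hold 3 *talpid2* and 3 control libraries, each pooled from 8 embryos. The breeding line of the sequenced embryos was not given in the labels, and nothing says that the 3 prominences of a genotype came from different embryos. A difference between genotypes in a prominence therefore compares 2 libraries and has no replicate check.

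Each value is a log2 level relative to the median of that gene over the 6 libraries, so genes cannot be ranked by level against each other. Sequencing depth, recovered from the steps between low values, ran between 0.949 and 1.01 times the median depth in the *talpid2* libraries and between 0.990 and 1.20 times in the control libraries. The MNP libraries carried a known mark: *HAND2*, a mandibular transcription factor, had log2 values of 6.91 in the *talpid2* MNP and 6.70 in the control MNP and lay between -0.53 and 0.14 in the other 4 libraries. This marker does not tell the FNP libraries from the MXP libraries. Of 16 epithelial markers 6 had values, and their median log2 ratio of *talpid2* over control was 0.22 (FNP), 0.02 (MXP) and -0.17 (MNP). Of 8 erythroid markers 5 had values, and all 5 were lower in *talpid2* in every prominence, with medians of -1.50, -1.09 and -0.69. The part of either cell type in the WNT results was not tested, and fewer cells of a type cannot be told apart from less RNA per cell in such pooled tissue.

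The WNT genes varied widely among the 6 libraries. The median range of a gene over the libraries was 0.95 log2 units for the 49 genes and 0.35 for all genes. Most of this range lay between prominences. The largest difference between prominences, averaged over the genotypes, had a median of 0.63 for the WNT genes against 0.29 for all genes, whereas the largest genotype ratio had a median of 0.29 against 0.21. The difference between prominences exceeded the genotype ratio for 35 of the 49 WNT genes (71.4%), and for 49.4% of all genes.

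**Figure D1:**
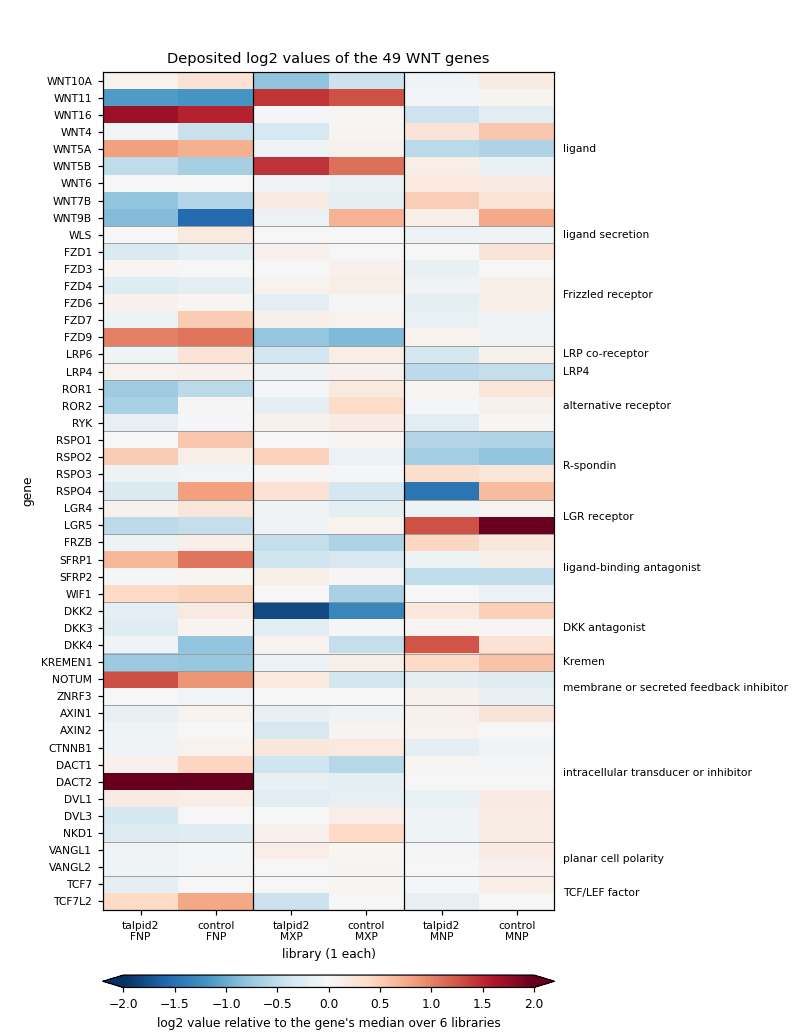
Deposited log2 values of the 49 WNT genes (rows, grouped by role) in the 6 libraries (columns, *talpid2* left of control in each prominence), each relative to the gene's own median over the libraries, with red for higher and blue for lower. *DACT2* reached 2.71 in the *talpid2* FNP and 2.87 in the control FNP. Most of the strongest colors fall in the same prominence of both genotypes, but *RSPO4* was at -1.47 in the *talpid2* MNP and 0.63 in the control MNP.

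Between genotypes, the antagonist entry called *DKK4* was higher in *talpid2* by at least 0.25 log2 units in all 3 prominences. So were 1.28% of all genes, but no other WNT gene. The identity of this entry, *DKK4* or *DKK1*, is not settled. The receptor antagonist *DKK2* and the co-receptor *LRP6* were lower by at least 0.25 in all 3, as were 1.79% of all genes. A log2 ratio of at least 0.5 in either direction, a 1.41-fold difference, was reached by 6 of the 49 genes in the FNP (7.86% of all genes), by 9 in the MXP (7.11% of all genes) and by 4 in the MNP (6.24% of all genes). In the FNP 2 of the 6 were higher (3.69% of all genes) and 4 lower (4.17%), in the MXP 5 were higher (3.48%) and 4 lower (3.63%), and in the MNP 1 was higher (2.53%) and 3 were lower (3.71%). At a log2 ratio of at least 1 the counts were 1 for the FNP (1.86% of all genes), 0 for the MXP (1.72%) and 1 for the MNP (1.54%), and the gene was *RSPO4*. A ratio of at least 0.5 in at least 1 prominence was reached by 12 WNT genes (24.5%), against 14.6% of all genes. Among the genes within the authors' limits on expression values in all 6 libraries, 44 of the WNT genes remained, with 4, 7 and 2 past the limit in the FNP, MXP and MNP, beside backgrounds of 3.97%, 3.28% and 2.45%. *RSPO4* and *WNT9B* were not among these 44.

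Small shifts were more often downward. The median log2 ratio of the WNT genes was -0.07 (FNP), -0.04 (MXP) and -0.12 (MNP), where the medians of all genes were 0.00 in each. Of the 49 genes, 16 were lower in *talpid2* in all 3 prominences (32.7%, against 21.7% of all genes), and 6 were higher in all 3 (12.2%, against 20.5% of all genes). With *GAPDH* as the reference, all ratios shifted by 0.01 (FNP), -0.11 (MXP) and -0.08 (MNP), which gave 27 WNT genes lower and 3 higher in all 3 prominences, beside 32.6% lower and 8.65% higher among all genes. Past 0.5 in the MXP it gave 2 higher and 5 lower WNT genes in place of 5 and 4, and all genes turned the same way, with 2.38% higher and 5.53% lower. No WNT gene passed limma's test of the genotype over the 3 prominences at an adjusted p of 0.05, and neither did any other gene (0.0%). At an unadjusted p of 0.05, 11 of the 49 passed it (22.4%), against 14.9% of all genes. The 3 prominences are the only replicates in this test and may come from the same embryos. Its SE and p thus measure how alike the ratios were across prominences, not variation between pools of embryos.

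Read numbers were recovered for 19 of the WNT genes, and their ratios could be tested for counting error alone with the exact Audic-Claverie test, adjusted over the 4940 genes with reads. By this test 3 of the 19 differed between the FNP libraries (9.05% of all genes tested), 4 between the MXP libraries (5.12%) and 1 between the MNP libraries (5.26%). They were *NOTUM*, *DKK3* and *TCF7L2* in the FNP, *NOTUM*, *WIF1*, *WNT5B* and *TCF7L2* in the MXP, and *DKK4* in the MNP. Without adjustment the numbers were 5, 5 and 3, beside 21.0%, 16.6% and 17.6% of all genes tested. The remaining 30 WNT genes have no interval, among them *LRP6*, *ROR2*, *FZD7* and *LGR5*.

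**Figure D2:**
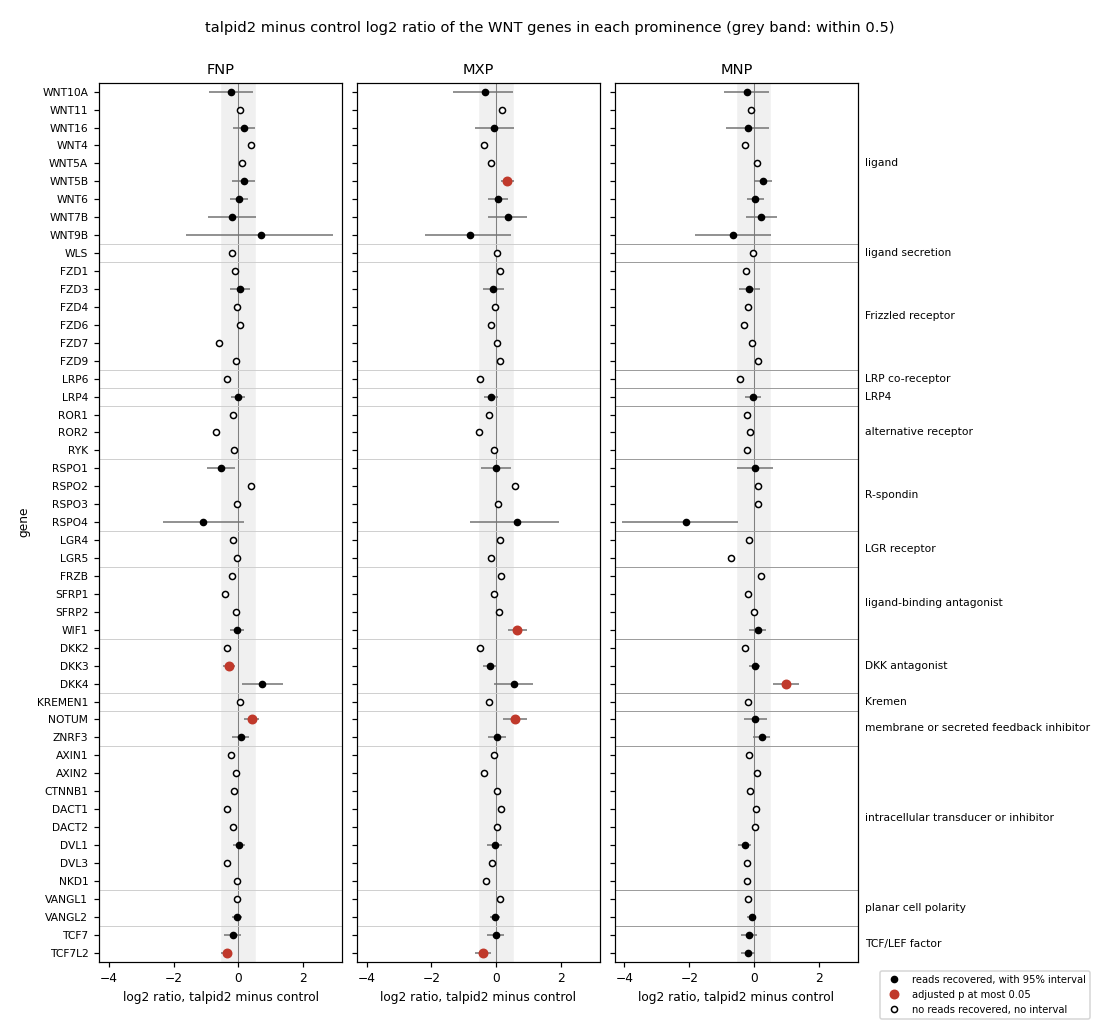
Log2 ratio of *talpid2* minus control (x axis) for the 49 WNT genes by role (y axis) in the FNP, MXP and MNP, with lines for the exact 95% interval where reads were recovered, red points for an adjusted p of at most 0.05 and open points for genes without reads. Most points lie within 0.5 of zero, *DKK4* lies right of it in all 3 panels, and *RSPO4* and *WNT9B* have the widest intervals.

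*DKK4* belongs to the Dickkopf family, whose canonical members bind LRP co-receptors and block β-catenin signaling. Its identity is not settled: the entry ENSGALG00000003814 lies at chr6:11359875-11360517 on the plus strand, in positions of the authors' file, which names no assembly, and 6628 bases after *PRKG1*. The file describes it as a Dkk-1 fragment, whereas the RefSeq gene table gives its Entrez identifier the symbol *DKK4*. The entry is called *DKK4* throughout, so every result given under that name may be one of *DKK1*. Whether its values are those of *DKK4* or of *DKK1* was not tested. Its log2 values were -0.07, 0.07 and 1.26 in the *talpid2* FNP, MXP and MNP, against -0.79, -0.47 and 0.28 in the control libraries of these prominences. The *talpid2* library was the higher in each prominence, and in both genotypes the MNP stood highest.

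From 52.0, 59.4 and 139 reads in the *talpid2* FNP, MXP and MNP, against 38.1, 41.0 and 84.0 reads in the control libraries, the log2 ratios of *DKK4* were 0.72 (95% interval 0.09 to 1.37), 0.54 (-0.07 to 1.14) and 0.98 (0.58 to 1.39). It rose 1.97-fold in the MNP (Audic-Claverie test, adjusted p = 9.72e-05), and its ratios in the FNP and MXP did not pass (adjusted p = 0.146 and 0.381). The 3 ratios were not shown to differ from each other by the exact conditional test (adjusted p between 0.699 and 0.956). Over the 3 prominences limma gave 0.75 ± 0.10 (SE, 3 libraries per genotype, each of a different prominence), with an unadjusted p of 0.00213 and an adjusted p of 0.257.

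The other Dickkopf genes had ratios near or below zero. *DKK2*, another LRP-binding family member, had log2 values of -0.18, -1.81 and 0.21 in the *talpid2* FNP, MXP and MNP, against 0.18, -1.30 and 0.48 in the control libraries. Its ratios of -0.36, -0.51 and -0.27 averaged -0.38 ± 0.07 (SE; limma adjusted p = 0.257). *DKK3*, a divergent Dickkopf that does not act as a classical WNT antagonist, fell by 0.30 in the FNP with an interval of -0.49 to -0.11 (379 reads in *talpid2* and 563 in control; adjusted p = 0.0243). Its ratio was -0.20 in the MXP (adjusted p = 0.266) and 0.01 in the MNP. *KREMEN1*, a receptor that works with Dickkopf proteins to remove LRP6 from the surface, had ratios of 0.04, -0.22 and -0.19.

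*LRP6*, the co-receptor on which β-catenin signaling depends, had log2 values of -0.08, -0.38 and -0.36 in the *talpid2* FNP, MXP and MNP, against 0.28, 0.13 and 0.08 in the control libraries. All 3 *talpid2* values were below all 3 control values, as they were for 3 of the 49 WNT genes (6.12%, against 6.73% of all genes). Its ratios were -0.36, -0.52 and -0.44, an average of -0.44 ± 0.06 (SE; limma unadjusted p = 0.00161, adjusted p = 0.257), or 0.78, 0.70 and 0.74 times the control level. An overlapping gene on the opposite strand, *LOH12CR1*, had ratios of 0.08, -0.10 and 0.01, and reads of the pair cannot be told apart without strand. *LRP4*, a related receptor that binds WNT modulators, had ratios between -0.15 and -0.01.

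Among the alternative receptors, *ROR1*, *ROR2* and *RYK* had ratios below zero in every prominence. *ROR2*, a receptor tyrosine kinase for WNT5A, had log2 values of -0.65, -0.18 and -0.03 in the *talpid2* FNP, MXP and MNP, against 0.03, 0.37 and 0.09 in the control libraries. Each *talpid2* value lay below the control values of all prominences, with ratios of -0.68, -0.55 and -0.12 (limma unadjusted p = 0.0276, adjusted p = 0.297). *ROR2* lies on chromosome Z, whose 361 genes had median ratios of -0.05, -0.06 and -0.07. *ROR1*, its close relative, had ratios of -0.17, -0.23 and -0.21, and *RYK*, an atypical WNT receptor, -0.14, -0.07 and -0.24.

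The 6 Frizzled receptors had 1 member past 0.5. *FZD7* had log2 values of -0.11, 0.10 and -0.13 in the *talpid2* FNP, MXP and MNP, against 0.50, 0.07 and -0.07 in the control libraries. The control FNP stood above the other 5 libraries, and its ratios were -0.61 (FNP), 0.03 (MXP) and -0.06 (MNP), with no recovered reads to test. The other 5 had ratios between -0.31 and 0.13 in all prominences. A further Frizzled entry, *FZD10*, was not among the 49 because its identifier has no symbol in the reference table, and it is given apart. Its ratio was -0.39 (FNP), 0.41 (MXP) and 0.43 (MNP), from 137, 182 and 169 reads in the *talpid2* FNP, MXP and MNP and 216, 137 and 150 reads in the control libraries.

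None of the 3 *FZD10* ratios passed the Audic-Claverie test after adjustment (adjusted p between 0.106 and 0.138). The FNP ratio of *FZD10* differed from that of the MXP (exact conditional test, adjusted p = 0.0285) and from that of the MNP (adjusted p = 0.0226). Among the 19 WNT genes with reads, the genotype ratio differed between FNP and MXP for 1 (2.61% of all genes tested), and for 0 between MNP and MXP (1.58%) and between FNP and MNP (2.55%).

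That gene was *WIF1*, a secreted protein that binds WNT ligands directly and blocks them. Its log2 values were 0.40, 0.01 and -0.01 in the *talpid2* FNP, MXP and MNP, against 0.45, -0.65 and -0.11 in the control libraries, so that the control MXP stood lowest. *WIF1* rose 1.57-fold in the MXP (log2 ratio 0.65, interval 0.35 to 0.95), with 237 reads in *talpid2* and 152 in control (adjusted p = 0.0013). Its ratios were -0.05 in the FNP and 0.11 in the MNP, and the FNP and MXP ratios differed (exact conditional test, adjusted p = 0.0149).

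The other ligand-binding antagonists, relatives of the Frizzled ligand-binding domain, stayed within 0.5 of zero. *SFRP1* had ratios of -0.40, -0.07 and -0.20, *SFRP2* lay between -0.06 and 0.09, and *FRZB* between -0.19 and 0.20. *FRZB* overlaps the gene *LOC770480*, whose ratios of -0.40, 0.16 and 0.14 were in the same directions.

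*NOTUM*, a secreted enzyme that removes the lipid from WNT proteins and is itself a WNT target, had log2 values of 1.29, 0.20 and -0.20 in the *talpid2* FNP, MXP and MNP, against 0.89, -0.36 and -0.24 in the control libraries. It rose 1.32-fold in the FNP, with 318 reads in *talpid2* and 290 in the deeper control library (log2 ratio 0.40, interval 0.17 to 0.64; adjusted p = 0.0106). It rose 1.48-fold in the MXP, with 155 reads in *talpid2* and 105 in control (0.56, interval 0.20 to 0.94; adjusted p = 0.0438). In the MNP its ratio was 0.04 with an interval of -0.32 to 0.40.

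The other feedback genes, which the pathway itself induces in many tissues, had ratios within 0.4 of zero in every prominence. *AXIN2*, the scaffold used most often as a readout of β-catenin signaling, had log2 values of -0.08, -0.32 and 0.07 in the *talpid2* FNP, MXP and MNP, against 0.01, 0.06 and -0.01 in the control libraries, with ratios of -0.09, -0.38 and 0.07. *NKD1*, a Dishevelled-binding inhibitor, had ratios of -0.04, -0.32 and -0.22. *ZNRF3*, a ubiquitin ligase that removes Frizzled receptors, had 0.07, 0.02 and 0.23, and its intervals all included zero. It was the 1 WNT gene whose *talpid2* values all lay above the control values of all prominences, as did those of 6.71% of all genes. *LEF1*, *APCDD1* and *RNF43* were not analysed here.

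**Figure D3:**
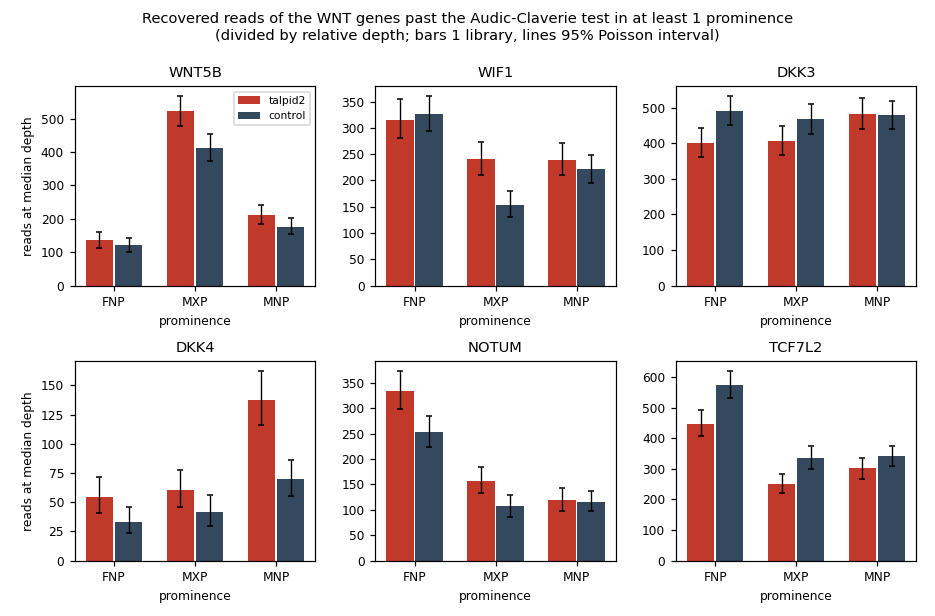
Recovered reads divided by relative depth (y axis, starting at 0) in the FNP, MXP and MNP for the 6 WNT genes past the Audic-Claverie test in at least 1 prominence, with *talpid2* left of control, 1 library per bar and 95% Poisson intervals as lines. *DKK4* is separated most clearly in the MNP, *WIF1* in the MXP, and *TCF7L2* is lower in *talpid2* in all 3 prominences.

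*TCF7L2*, a DNA-binding partner of β-catenin, had 425, 247 and 305 reads in the *talpid2* FNP, MXP and MNP, against 660.2, 332 and 410.5 in the control libraries. It fell by 0.36 on the log2 scale in the FNP (interval -0.54 to -0.18; adjusted p = 0.0014) and by 0.42 in the MXP (-0.67 to -0.18; adjusted p = 0.0151). Its MNP ratio was -0.18 with an interval of -0.40 to 0.04. It overlaps *VTI1A* on the same strand, whose ratios were -0.01, 0.09 and 0.19. *TCF7*, a factor of the same family, had ratios of -0.18, -0.02 and -0.17, and none of its 3 intervals excluded zero.

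The cytoplasmic genes stayed within 0.4 of zero. *CTNNB1*, which encodes β-catenin, had ratios of -0.14, 0.03 and -0.12. *AXIN1*, a scaffold of the complex that degrades β-catenin, had -0.24, -0.07 and -0.17. *DVL1*, which relays the signal from Frizzled, had 0.02, -0.05 and -0.29, the last with an adjusted p of 0.0532. The entry named *DVL3* in the file carries an identifier that the reference table gives to *DVL2*, and had ratios of -0.35, -0.14 and -0.22. *WLS*, which carries WNT proteins to the cell surface, had -0.19, 0.01 and -0.03. The planar polarity genes *VANGL1* and *VANGL2* lay between -0.20 and 0.10.

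Of the 9 ligands, *WNT4*, *WNT5A* and *WNT11* had no recovered reads to test. Among the others, *WNT5B* was the gene past the read test. It is known mainly for signaling that does not pass through β-catenin. Its log2 values were -0.51, 1.44 and 0.13 in the *talpid2* FNP, MXP and MNP, against -0.67, 1.10 and -0.13 in the control libraries. It rose 1.27-fold in the MXP, from 515 reads in *talpid2* and 408 in control (log2 ratio 0.34, interval 0.15 to 0.53; adjusted p = 0.014). Its ratios in the FNP and MNP were 0.16 and 0.26, with intervals of -0.20 to 0.51 and -0.02 to 0.54.

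*WNT9B*, an ectodermal ligand required for lip fusion in mice, was past 0.5 in all 3 prominences but in opposite directions, at 0.69 (FNP), -0.81 (MXP) and -0.65 (MNP). It had 5.10, 8.92 and 10.6 reads in the *talpid2* FNP, MXP and MNP, against 3.82, 15.7 and 19.96 in the control libraries, and all 3 intervals included zero. *WNT9B* was within the authors' limits in 4 libraries. The filter needs only 1, so the ratios of *WNT9B* are not independent of it. *WNT4*, a ligand of many epithelia, had ratios of 0.38, -0.38 and -0.27. *WNT5A*, *WNT6*, *WNT11* and *WNT16* lay within 0.21 of zero in every prominence. *WNT7B* and *WNT10A* were within the authors' limits in 3 and 2 libraries, with ratios of -0.19, 0.35 and 0.21, and of -0.23, -0.36 and -0.22. *WNT6* and *WNT10A* lie inside the interval of *SLC11A1* on the same strand.

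The R-spondins, secreted proteins that strengthen WNT signaling by sparing Frizzled receptors from removal, had ratios of either sign. None passed limma's genotype test after adjustment, and neither did any other gene. *RSPO1* and *RSPO4* did not pass the Audic-Claverie test after adjustment, and *RSPO2* and *RSPO3* had no recovered reads for it. *RSPO2*, the family member most closely tied to craniofacial and limb outgrowth in mice, had log2 values of 0.52, 0.45 and -0.68 in the *talpid2* FNP, MXP and MNP, against 0.12, -0.12 and -0.78 in the control libraries. Its ratios were 0.39, 0.58 and 0.11 (limma unadjusted p = 0.0316, adjusted p = 0.299). *RSPO1* was at -0.55 in the FNP, where the control library was highest, from 74.6 reads in *talpid2* and 131 in control (interval -0.96 to -0.11; adjusted p = 0.086), and its other ratios were -0.02 and 0.02. *RSPO3* had ratios between -0.05 and 0.11.

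*RSPO4* had the largest FNP and MNP ratios of the 49 genes, on few reads. It had 8.52, 13.2 and 4 reads in the *talpid2* FNP, MXP and MNP, against 22.2, 8.56 and 20.4 in the control libraries, and ratios of -1.11, 0.63 and -2.10. Its MNP interval was -4.08 to -0.49 (Audic-Claverie test, adjusted p = 0.063), and those of the FNP and MXP included zero. *RSPO4* was within the authors' limits in 3 libraries. The filter needs only 1, so the ratios of *RSPO4* are not independent of it.

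*LGR5*, an R-spondin receptor and a WNT target in several epithelia, had log2 values of -0.53, -0.07 and 1.27 in the *talpid2* FNP, MXP and MNP, against -0.47, 0.07 and 1.97 in the control libraries. The MNP libraries stood above the other 4 in both genotypes. Its MNP ratio was -0.70, or 0.61 times the control level, against -0.06 for the FNP and -0.15 for the MXP, and it has no recovered reads. *LGR4*, a more widely expressed R-spondin receptor, had ratios of -0.16, 0.10 and -0.17.

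Next, the prominences were compared with each other, since they differed more than the genotypes. Each of these comparisons rests on 2 libraries per prominence, 1 of each genotype, and the fit assumes the same prominence difference in both. The SE and p of these comparisons thus measure how alike the prominence differences were in the 2 genotypes. They do not measure variation between pools of embryos. By limma, 19 of the 49 WNT genes differed between at least 1 pair of prominences at an adjusted p of 0.05 (38.8%), against 13.7% of all genes. The numbers were 9 between MNP and MXP (4.64% of all genes), 13 between FNP and MXP (7.89%) and 17 between FNP and MNP (10.2%). A difference of at least 1 log2 unit in both genotypes was found for 12 WNT genes (24.5%), against 6.84% of all genes. By pair of prominences it was found for 4 genes between MNP and MXP (3.14% of all genes), 8 between FNP and MXP (3.88%) and 8 between FNP and MNP (4.51%).

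**Figure D4:**
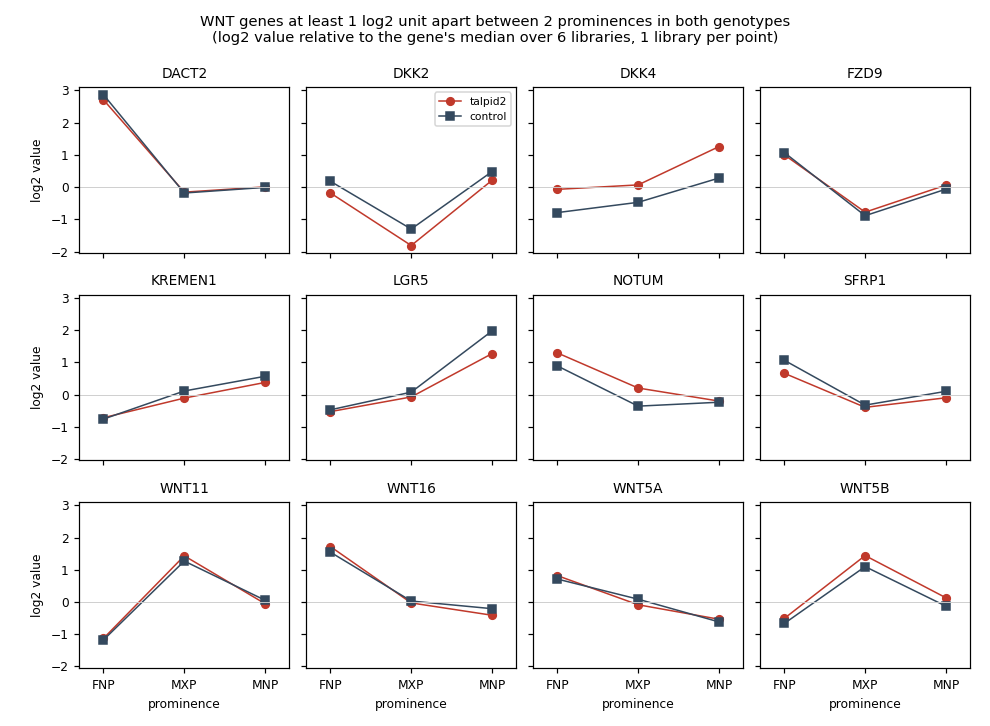
Log2 values (y axis) by prominence (x axis) of the 12 WNT genes that were at least 1 log2 unit apart between 2 prominences in both genotypes, with *talpid2* as red circles and control as dark squares, 1 library per point. In both genotypes *DACT2* and *FZD9* are highest in the FNP, *WNT11* and *WNT5B* in the MXP, and *LGR5* and *DKK4* in the MNP, whereas MNP minus MXP of *NOTUM* was -0.40 in *talpid2* and 0.12 in control.

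In the FNP, *DACT2*, which modulates WNT and TGF-β signaling inside the cell, was the WNT gene with the largest difference. Its log2 values were 2.71 in the *talpid2* FNP and 2.87 in the control FNP, and between -0.18 and 0.01 in the other 4 libraries. It was higher in the FNP than in the MXP by 2.96 ± 0.08 (SE, 2 libraries each; limma adjusted p = 0.0033) and than in the MNP by 2.79 ± 0.08 (adjusted p = 0.0021). *FZD9*, a Frizzled receptor, had values of 1.001 and 1.07 in the *talpid2* and control FNP, 0.06 and -0.06 in the MNP, and -0.78 and -0.89 in the MXP. All 3 of its differences between prominences passed the test, with the FNP above the MXP by 1.87 ± 0.08 (adjusted p = 0.0046).

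The ligand *WNT16* was at 1.72 and 1.55 in the *talpid2* and control FNP, and between -0.41 and 0.03 elsewhere. It was higher in the FNP than in the MNP by 1.94 ± 0.11 (limma adjusted p = 0.0065), and was within the authors' limits in 4 libraries. *WNT5A*, which drives cell polarity and outgrowth of limb and face, was at 0.82 and 0.71 in the *talpid2* and control FNP, -0.09 and 0.09 in the same order for the MXP, and -0.54 and -0.62 for the MNP. Its FNP level was above that of the MNP by 1.34 ± 0.10 (adjusted p = 0.0096) and above that of the MXP by 0.76 ± 0.10 (adjusted p = 0.0313).

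The inhibitors *NOTUM* and *SFRP1* were also higher in the FNP. *NOTUM* exceeded its MXP level by 1.17 ± 0.15 and its MNP level by 1.31 ± 0.15 (limma adjusted p = 0.032 and 0.0215). *SFRP1* had values of 0.66 and 1.06 in the *talpid2* and control FNP and between -0.40 and 0.10 elsewhere, and exceeded its MXP level by 1.22 ± 0.10 (adjusted p = 0.0156). *TCF7L2* exceeded its MXP level by 0.81 ± 0.08 and its MNP level by 0.66 ± 0.08 (adjusted p = 0.0228 and 0.0267).

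In the MXP, 2 ligands stood highest. *WNT11*, known for non-canonical signaling in cell movement, had log2 values of 1.43 and 1.27 in the *talpid2* and control MXP, -0.05 and 0.05 in the MNP, and -1.13 and -1.18 in the FNP. It was lower in the FNP than in the MXP by 2.51 ± 0.09 and in the MNP than in the MXP by 1.35 ± 0.09 (limma adjusted p = 0.004 and 0.0132). *WNT5B* had the same order, with 1.44 and 1.10 in the *talpid2* and control MXP and -0.51 and -0.67 in the FNP, a difference of -1.86 ± 0.07 for FNP minus MXP (adjusted p = 0.0046).

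*DKK2* had the opposite pattern and was lowest in the MXP of both genotypes. Its difference was 1.90 ± 0.08 for MNP minus MXP and 1.56 ± 0.08 for FNP minus MXP (limma adjusted p = 0.0073 and 0.0072). Its FNP minus MNP difference of -0.35 did not pass (adjusted p = 0.0911).

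In the MNP, *LGR5* stood highest in both genotypes. FNP minus MNP was -1.80 in *talpid2* and -2.45 in control, and limma gave -2.12 ± 0.19 (SE, 2 libraries each; adjusted p = 0.0135). *DKK4* was lower in the FNP than in the MNP by 1.20 ± 0.12 (adjusted p = 0.0179), and MNP minus MXP was 0.97 ± 0.12 (adjusted p = 0.0432). *KREMEN1* was lower in the FNP than in the MNP by 1.21 ± 0.09 (adjusted p = 0.0103). *LRP4* and *SFRP2* were lower in the MNP than in both other prominences, with MNP minus MXP at -0.51 ± 0.07 and -0.58 ± 0.07 (adjusted p = 0.0427 and 0.0356).

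The others past the test were *ROR1*, lowest in the FNP, with FNP minus MNP at -0.76 ± 0.06 (limma adjusted p = 0.0101), *RSPO2*, with FNP minus MNP at 1.05 ± 0.13 (adjusted p = 0.0265), and 2 genes that were outside the authors' limits in some libraries, *WNT7B* and *WNT10A*. *WNT7B* was lower in the FNP than in the MNP by 1.07 ± 0.15 (adjusted p = 0.0342). *WNT10A* was higher in the FNP than in the MXP by 0.79 ± 0.07 (adjusted p = 0.0165). *WNT7B* was within the limits in 3 libraries and *WNT10A* in 2. The filter needs only 1, so both could be kept through the libraries in which they are high. Their differences are thus not independent of the filter, and the same holds for *WNT16*, which was within the limits in 4 libraries.

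**Figure D5:**
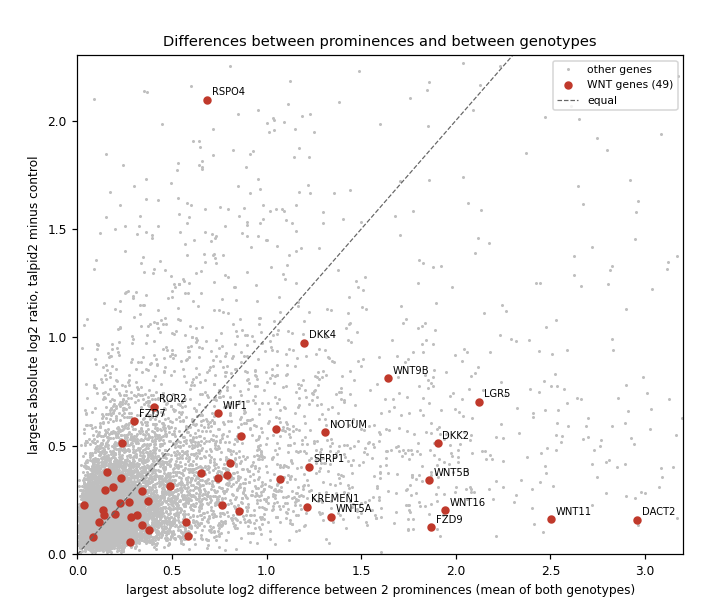
Largest absolute log2 difference between 2 prominences, averaged over the genotypes (x axis), against the largest absolute log2 ratio of *talpid2* minus control (y axis), for the 49 WNT genes in red and the other genes in grey, of which 158 lie outside the axes. Of the 49 WNT genes 35 lie below the dashed line of equal size, with *DACT2*, *WNT11* and *LGR5* farthest right and *RSPO4* highest.

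Other genes of the pathway were taken from 5 lists of its degradation complex, nuclear cofactors, targets, planar polarity proteins and extracellular modulators, and 56 of the 92 listed genes had values. By at least 0.5, 4 of the 56 were higher and 2 lower in the FNP libraries (3.69% and 4.17% of all genes), 1 was higher and 2 lower in the MXP libraries (3.48% and 3.63%), and 2 were higher and 0 lower in the MNP libraries (2.53% and 3.71%). Of the 20 with reads, the Audic-Claverie test after adjustment called 4 genes in the FNP, 1 higher and 3 lower (9.05% of all genes tested), 1 lower gene in the MXP (5.12%) and 1 higher gene in the MNP (5.26%), the last 2 numbers being near the background.

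*SOSTDC1*, a secreted antagonist of WNT and BMP signals, had 768, 590 and 760 reads in the *talpid2* FNP, MXP and MNP, against 552, 537 and 635 in the control libraries. It rose in the FNP and MNP, with log2 ratios of 0.75 (interval 0.59 to 0.91) and 0.51 (0.36 to 0.67), and its MXP ratio was 0.14 (-0.03 to 0.31). *BCL9L*, a coactivator that docks on β-catenin, fell by 0.48 in the FNP (-0.73 to -0.24) and by 0.67 in the MXP (-0.93 to -0.41), and its MNP ratio was -0.35 (adjusted p = 0.065).

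*MYC*, a growth regulator, fell in the FNP with a ratio of -0.79 (-1.21 to -0.38), from 73.6 reads in *talpid2* and 154 in control, and had ratios of -0.54 in the MXP and -0.01 in the MNP. *FGF8*, an ectodermal growth signal, fell in the FNP with a ratio of -0.84 (-1.25 to -0.44), from 76.9 reads in *talpid2* and 166 in control, and had ratios of 0.07 in the MXP and 0.33 in the MNP. *MSX1*, a mesenchymal transcription factor, had ratios of 0.18, 0.53 and 0.72 with no recovered reads. *BAMBI*, a membrane protein that modulates WNT and BMP signals, had 0.52, 0.31 and 0.33. *CTHRC1*, a secreted cofactor of WNT polarity signaling, and *GPC6*, a cell-surface proteoglycan, were past 0.5 in the FNP at 0.50 and 0.64, the second with an interval that included zero.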

How the data were processed

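Facial prominences were pooled by genotype, and libraries were made with TruSeq and Ovation V2 methods and sequenced on 1 lane. The authors analysed aligned reads in GeneSpring 12.5 against an Ensembl chick genome. The aligner and scaling are not given in the sources used here. The deposited values are log2, scaled per library, floored at 1 and centred on the median of each gene over the 6 libraries. The file keeps genes with at least 1 library above 3.0 and below an upper limit. This filter, the median centring and unstated strand use limit comparisons of low, different and overlapping genes.

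Ratios are differences of log2 values, with no pseudocount. Low values are whole multiples of the value of 1 base, which gave the smallest set of reads (bases divided by 50, up to 1000 reads) for 4940 genes (47.8%). As a control, 20 random sets of steps that were wrong by up to 2.5% solved between 0 and 7 of 2068 genes (median 3), against 48.5% of these genes with the true steps. Where all 6 numbers share a factor the reads are too few and the intervals too wide. Reads were rounded for the exact two-sided Audic-Claverie test, exact Clopper-Pearson intervals at 95% and the exact conditional test of equal ratios, each adjusted by Benjamini-Hochberg over all genes with reads. The last was adjusted over the 3 pairs of prominences too. All of these cover counting error only. limma 3.58.1 in R 4.3.3 was fitted to the 6 libraries with prominence and genotype (2 residual and 1.83 prior degrees of freedom), and its adjusted p-values run over all 10337 genes. Python 3.11.15 with scipy 1.17.1 was used, and the tests were also run on simulated data with settings taken from these data.

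Genes were matched to symbols by Entrez identifier in the RefSeq table of GRCg7b, used for names only. The members and lists were chosen with earlier results of these data known. Named were *DKK4*, genes past 0.5 between genotypes or past 1 between prominences in both genotypes, and the feedback and core genes. Other genes are named to account for the rest, after their values were seen. Alternatives were other limits, filters, scalings, a pseudocount of 10 reads, a robust prior, no adjustment and single genotypes. The other marker lists, for facial mesenchyme, nerve, muscle, endothelium and cartilage, had median ratios between -0.29 and 0.42. Single markers varied more. The 4 cartilage markers with values ran from -0.13 to 1.32 (FNP), -0.09 to 1.38 (MXP) and 0.17 to 0.57 (MNP). The part of these cell types in the WNT results was not tested. Sequences were not used here.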

Additional observations from a re-analysis of the deposited data

Results flagged for a closer look

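The log2 ratio of *WIF1* differed between prominences in the exact conditional test, with FNP minus MXP at -0.70 (adjusted p = 0.0149). Outside the 49 genes, *FZD10* gave -0.80 for FNP minus MXP and -0.81 for FNP minus MNP (adjusted p = 0.0285 and 0.0226), *FGF8* gave -0.91 and -1.17 for the same pairs (adjusted p = 0.0421 and 0.0121), and *SOSTDC1* gave 0.61 for FNP minus MXP (adjusted p = 5.2e-05). These tests cover counting error in 4 libraries each. The *talpid2* ratio was the lower in the FNP for *WIF1*, *FZD10* and *FGF8*, and the higher in the FNP for *SOSTDC1*.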

How the results depend on the processing

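At a log2 ratio of at least 1, 1, 0 and 1 of the 49 genes were past the limit in the FNP, MXP and MNP, against 6, 9 and 4 at 0.5. Without genes outside the authors' limits in any library, the MNP number was 2. With 10 added to the reads, 2 genes in the FNP and 2 in the MXP were past 0.5 among genes with reads, against 4 and 5 without it. Of all genes with reads, 7.57% and 5.69% were past 0.5 with the added reads, against 12.2% and 11.5%. Without adjustment, the Audic-Claverie test called 5 WNT genes for the FNP and 3 for the MNP. With *GAPDH* as the reference, the median ratio was -0.15 in the MXP and -0.20 in the MNP. Among the *talpid2* libraries alone, 7 genes differed by at least 1 between MNP and MXP (4.95% of all genes), against 4 in both genotypes (3.14%). The control libraries alone gave 4 for this pair (5.06%). Between FNP and MXP the numbers were 8 in *talpid2* (5.93%), 11 in control (6.4%) and 8 in both (3.88%). Between FNP and MNP they were 11 in *talpid2* (6.93%), 11 in control (6.56%) and 8 in both (4.51%). Leaving out the pair of any prominence gave 0 genotype calls by limma among the WNT genes and among all genes (0.0%). The fit to all 6 libraries had no calls to lose, so this says nothing about stability. Restricted to genes within the limits in all 6 libraries, limma called 11 WNT genes for MNP and MXP (4.7% of all genes tested). It called 13 for FNP and MXP (9.2%) and 17 for FNP and MNP (10.6%). The calls lost, *WNT7B*, *WNT10A* and *WNT16*, were all no longer tested. Those gained were *FRZB*, *RSPO2* and *WNT5A* for MNP and MXP, and *DACT1* and *NKD1* for FNP and MXP. For FNP and MNP they were *RSPO1* and *RSPO3*. Of 351 recomputed ratios of the 49 genes, 320 were classed as unchanged and 31 as moved, all with *GAPDH*. *GAPDH* shifts every ratio of a prominence by the same amount, so the class depends on the spread allowed for each gene. Ratios near zero could change sign and still be classed as unchanged. *AXIN2* did so in the MNP, from 0.07 to -0.01. The limma fit compares the genotypes within prominences, so the *talpid2* and control libraries of a prominence form a pair. No further pairing was possible because the labels give no replicate number to use as a block. Among the 19 WNT genes with recovered reads, depth limits *WNT9B* and *RSPO4* most, with at most 19.96 and 22.2 reads in any library.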
